A study of Mus musculus with 24 samples.

Results

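The nuclear receptors of retinoic acid, Rara, Rarb and Rarg, and their partner receptors, Rxra, Rxrb and Rxrg, were followed in sorted spermatogonia of the P7 mouse testis. They were taken by gene symbol, and all 6 were found among the 23177 genes of the table for the Zbtb16 set and among the 21688 genes of the table for the Sox3 set. RNA sequencing had been done on 24 libraries in 8 groups of 3, made from 2 fractions separated with antibody-coated magnetic beads, the undifferentiated spermatogonia (uSPG), which carry THY1, and the differentiating spermatogonia (dSPG), which carry KIT. The Zbtb16 set compared Zbtb16 null mice, which carry the luxoid allele on both chromosomes, with WT littermates. The Sox3 set compared Sox3 cKO mice, in which floxed Sox3 is removed in male germ cells by a Cre driven from Ddx4, with WT littermates. All mice were of the B6 background, and each isolation pooled the testes of 3 mice at postnatal day 7. Of the 6 receptor genes, Rxrg was the member that rose in the Zbtb16 null, by 9.61-fold in THY1+ uSPG and by 3.85-fold in KIT+ dSPG. These folds are of levels with 0.1 FPKM added, where FPKM is a measure of transcript level explained below. The group means rose from 0.645 to 6.86 FPKM in THY1+ uSPG and from 0.224 to 1.16 FPKM in KIT+ dSPG. Rarb was lower by 0.59 log2 units averaged over the fractions, close to the threshold of the test, and did not pass in either fraction alone. This rise of Rxrg was known when the 6 genes were picked.

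Retinoic acid, made from vitamin A, drives spermatogonia from the undifferentiated state toward KIT expression and, later, toward meiosis. It binds the retinoic acid receptors RARα, RARβ and RARγ, encoded by Rara, Rarb and Rarg, which sit on DNA as heterodimers with a retinoid X receptor, encoded by Rxra, Rxrb or Rxrg. Without ligand the heterodimer holds corepressors, and with ligand it exchanges them for coactivators. The RXR proteins also pair with receptors for thyroid hormone, vitamin D and lipids, so that their supply is shared among several pathways.

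Rarb is itself a textbook target of retinoic acid, through a response element next to its start site. Rarb and Rxrg passed the test for the Zbtb16 genotype averaged over both fractions, Rarb only close to the threshold. Their promoter sequences are therefore shown. They come from RefSeq on GRCm38.p6, the build of the mm10 alignments, and each runs from 250 bases before to 50 bases after an annotated start. The Rarb window lies on the minus strand at chr14:16575427-16575726. The Rxrg windows lie on the plus strand at chr1:167598112-167598411 and chr1:167618015-167618314, around separate annotated starts of the gene. Capitals mark every match, on either strand, to the core hexamer bound by these receptors, which was spelled AGGTCA in its usual form, with AGTTCA as well as GGGTCA and also GGTTCA allowed as variants, and in Rarb also the bases between the hexamers of a direct repeat.
Rarb: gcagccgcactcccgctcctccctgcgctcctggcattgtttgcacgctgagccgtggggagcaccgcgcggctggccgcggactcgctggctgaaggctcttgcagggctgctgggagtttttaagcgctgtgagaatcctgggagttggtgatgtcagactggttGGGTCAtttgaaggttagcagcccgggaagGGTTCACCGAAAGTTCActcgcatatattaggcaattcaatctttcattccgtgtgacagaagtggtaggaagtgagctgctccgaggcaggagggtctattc
Rxrg, first start: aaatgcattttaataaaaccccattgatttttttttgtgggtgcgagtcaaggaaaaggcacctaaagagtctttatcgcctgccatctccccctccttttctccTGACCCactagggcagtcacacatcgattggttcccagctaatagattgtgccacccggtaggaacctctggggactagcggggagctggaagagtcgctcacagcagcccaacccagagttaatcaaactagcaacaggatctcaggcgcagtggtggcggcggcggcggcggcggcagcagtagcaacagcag
Rxrg, second start: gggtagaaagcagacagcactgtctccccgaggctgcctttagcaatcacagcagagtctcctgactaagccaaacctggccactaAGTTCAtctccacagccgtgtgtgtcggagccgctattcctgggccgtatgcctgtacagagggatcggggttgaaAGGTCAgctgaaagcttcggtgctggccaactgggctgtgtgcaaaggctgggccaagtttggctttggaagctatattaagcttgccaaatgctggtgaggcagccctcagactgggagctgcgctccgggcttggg

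The Rarb window held a direct repeat of the hexamer with a spacing of 5 bases, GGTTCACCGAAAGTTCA, at bases -53 to -37 from the start, the arrangement called DR5, and a further hexamer at bases -83 to -78. The first Rxrg window held a hexamer on the opposite strand at bases -145 to -140, and the second held hexamers at bases -164 to -159 and -88 to -83. Direct repeats spaced by 1, 2 or 5 bases were searched on both strands of all 32851 promoter windows of this length. DR5 was found in 0.0974% of them, the repeats spaced by 1 and 2 bases in 0.222% and 0.268%, and the hexamer alone in 43.7%, every repeat holding the hexamer as well. Among the 13 windows of the 6 receptor genes, the only repeat of these kinds was that of Rarb. A match is a description of letters and was not tested for binding.

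Zbtb16 RNA is still made from the luxoid allele. In the Zbtb16 set it was present at 42.0 to 58.7 FPKM in WT THY1+ uSPG and at 15.6 to 18.2 FPKM in null THY1+ uSPG, and Sox3 in the Sox3 set fell from 6.28 to 24.4 FPKM in WT libraries to 0.0820 FPKM or less in cKO libraries. FPKM counts fragments per kilobase of transcript, scaled to the mapped reads of a library. The sorting markers of the Sox3 WT libraries went against their fraction labels. Thy1 was at 0.213 to 0.254 FPKM and Kit at 45.6 to 80.1 FPKM where the label said THY1+, and Thy1 was at 3.59 to 4.06 FPKM and Kit at 13.0 to 18.8 FPKM where it said KIT+. They were kept as labelled, and the genotype effect of that set was read from the average over both fractions, a value that does not depend on which WT group is which. Depth was estimated at 25960000 to 35180000 reads per library in the Zbtb16 set, at 28320000 to 31990000 reads in replicate 1 of the Sox3 set and at 11020000 to 14920000 reads in its replicates 2 and 3. In bulk samples, fewer cells of a type and less RNA per cell cannot be told apart.

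In WT THY1+ uSPG of the Zbtb16 set, Rxra was the most abundant receptor at 19.9 ± 4.66 FPKM (mean ± SD, n = 3), followed by Rxrb at 8.02 ± 1.11, Rara at 6.28 ± 1.33, Rarg at 5.15 ± 1.28, Rarb at 0.740 ± 0.103 and Rxrg at 0.645 ± 0.222. Rxrb and Rara, Rara and Rarg, and Rarb and Rxrg overlapped between libraries, so that their order is not resolved. In WT KIT+ dSPG the order of the group means was the same, with Rxra at 12.4 ± 3.11 FPKM, Rarb at 1.12 ± 0.146 and Rxrg at 0.224 ± 0.0261. The libraries of Rarb and Rxrg no longer overlapped there, while those of Rxra and Rxrb did. Over the 12 libraries of this set Rara ranged from 3.94 to 7.07 FPKM, Rarg from 3.13 to 6.39, Rxra from 10.2 to 24.8 and Rxrb from 6.74 to 13.1. The highest library exceeded the lowest by 1.79-fold for Rara, by 2.05-fold for Rarg, by 2.43-fold for Rxra and by 1.94-fold for Rxrb, against 3.06-fold for Rarb and 39.8-fold for Rxrg.

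**Figure D1:**
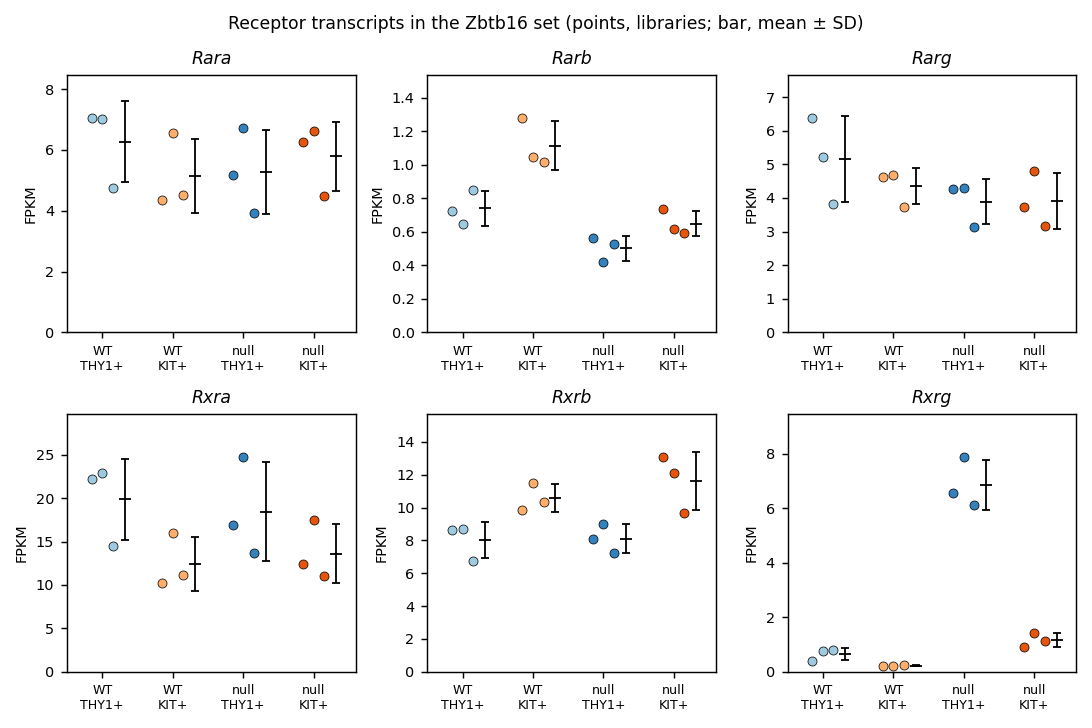
Level of each receptor gene in FPKM (y axis, linear from 0) in the 12 libraries of the Zbtb16 set, with a point for each library and the mean ± SD of each group of 3 beside it. Rxrg stood at 6.12 to 7.89 FPKM in null THY1+ uSPG against 0.390 to 0.792 in WT, and Rarb was lower in null than in WT libraries of the same fraction, while the other 4 genes overlapped. Rarb did not pass the test in either fraction alone.

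Rxrg encodes RXRγ, the retinoid X receptor with the narrowest tissue distribution. In WT THY1+ uSPG its level was 0.390, 0.753 and 0.792 FPKM in replicates 1, 2 and 3, from an estimated 27, 52 and 57 reads. In null THY1+ uSPG it was 6.57, 7.89 and 6.12 FPKM, from 425, 499 and 429 reads. Every null library lay far above every WT library. On the scale of log2(FPKM + 0.1), Rxrg rose by 3.27 (SE 0.24, 95% interval 2.74 to 3.79, 9.61-fold), with an adjusted p of 4.8e-05 by limma over the 22374 genes tested. It was the only receptor gene called, 1 of 6, where a call is an adjusted p of at most 0.05 with a change of at least 1.5-fold, and 3.98% of all genes tested were called (890 genes). The difference was 2.80 to 3.77 within the pairs of libraries with the same replicate number, and 2.99 to 3.42 when each of the 12 libraries was left out in turn, with a call each time. Only 0.0134% of the genes tested had a larger change in size. With the replicate number as a block, 1980 genes were called in place of 890, and Rxrg was still the only receptor gene among them.

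In KIT+ dSPG Rxrg was lower to begin with and also rose. Its level was 0.198, 0.223 and 0.251 FPKM in the WT libraries, from 13, 18 and 17 reads, and 0.923, 1.43 and 1.14 FPKM in the null libraries, from 55, 98 and 78 reads. The groups did not overlap. The rise was 1.95 on the log2 scale (SE 0.24, 95% interval 1.42 to 2.48, 3.85-fold, adjusted p = 0.0071 by limma), and again Rxrg was the only receptor gene called, 1 of 6 against 0.259% of all genes (58 genes). It kept its call when each library was left out in turn, at adjusted p-values of 0.0033 to 0.044. When only the 6 KIT+ libraries entered the model the difference was the same but the adjusted p was 0.0967, so that the call rests on the spread shared with the THY1+ libraries. The block by replicate number raised the genes called from 58 to 513, and Rarb joined Rxrg among them.

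The rise of Rxrg was smaller in KIT+ than in THY1+ cells by 1.32 log2 units (SE 0.34, 95% interval 0.57 to 2.07), a difference that did not pass the test after adjustment (unadjusted p = 0.0025, adjusted p = 0.0944, limma interaction term). Without a block, none of the 6 receptor genes was called by limma for this interaction, 1 had an unadjusted p under 0.05, and 0.0313% of all genes were called (7 genes). With the replicate number as a block the difference was called at an adjusted p of 0.0200, and the genes called rose from 7 to 2756. With a pseudocount of 1 in place of 0.1 it was 1.44 log2 units with an adjusted p of 0.0163. With a pseudocount of 0.01 it was not called.

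Marker genes of other testis cells and of germ cells were read beside Rxrg in both fractions. In the null THY1+ libraries the summed level of the 12 macrophage genes measured was 452 to 844 FPKM against 959 to 1080 in WT, that of 8 Leydig cell genes 51.7 to 80.8 against 84.6 to 121, and that of 9 T cell genes 11.4 to 12.3 against 15.4 to 17.0. The medians of the Sertoli, Leydig, peritubular and stromal, endothelial, macrophage and T cell lists were all below 0, at -0.48 to -0.77 log2 units. The 8 genes expressed across germ cells were all higher in null libraries, with none called by limma and 6 at an unadjusted p under 0.05. The 17 genes of undifferentiated spermatogonia summed to 236 to 285 FPKM in WT and to 225 to 292 FPKM in null libraries. Of these 17, 3 were called lower, beside 3.98% of all genes called in either direction in this comparison. In KIT+ dSPG the Leydig cell genes summed to 2050 to 3125 FPKM in null and to 1219 to 2275 FPKM in WT, and none of the 8 was called by limma, 4 having an unadjusted p under 0.05. Peritubular and stromal genes (median 0.69, 11 of 12 positive), endothelial genes (0.57, 7 of 8) and Sertoli genes (0.44, 9 of 11) were also higher there without a call, with 4, 2 and 3 of them at an unadjusted p under 0.05. Germ cell genes had a median of -0.20, with 6 of 8 negative, none called and 2 at an unadjusted p under 0.05. The 8 genes of differentiating spermatogonia summed to 251 to 293 FPKM in null and to 340 to 350 FPKM in WT KIT+ libraries. Their median was -0.27, with 6 of 8 negative, none called and 1 at an unadjusted p under 0.05. The part of these cells in the Rxrg differences of the THY1+ and KIT+ fractions was not tested.

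The added Rxrg RNA changed the make-up of the RXR pool. Rxrg made up 1.25 to 3.59% of the summed Rxra, Rxrb and Rxrg FPKM in WT THY1+ uSPG and 18.9 to 22.7% in null THY1+ uSPG. In KIT+ dSPG its share was 0.804 to 1.16% in WT and 3.50 to 5.21% in null libraries. The summed RXR level was 22.0 to 32.3 FPKM in WT and 27.0 to 41.7 FPKM in null THY1+ uSPG, ranges that overlap. The ratio of summed RXR to summed RAR FPKM was 2.21 to 2.50 in WT and 3.15 to 3.65 in null THY1+ uSPG. In KIT+ dSPG it was 1.98 to 2.34 in WT and 2.46 to 2.64 in null libraries, without overlap in either fraction. The mean summed RAR level was 12.2 FPKM in WT and 9.67 FPKM in null THY1+ uSPG. In KIT+ dSPG this mean was 10.6 FPKM in WT and 10.3 FPKM in null, and the libraries overlapped in both fractions. The part of Rxrg in the differences of the ratio was not tested. In null THY1+ uSPG Rxrg ranked behind Rxra and Rxrb at 6.86 ± 0.920 FPKM, overlapping Rxrb above it and Rara below it between libraries.

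**Figure D2:**
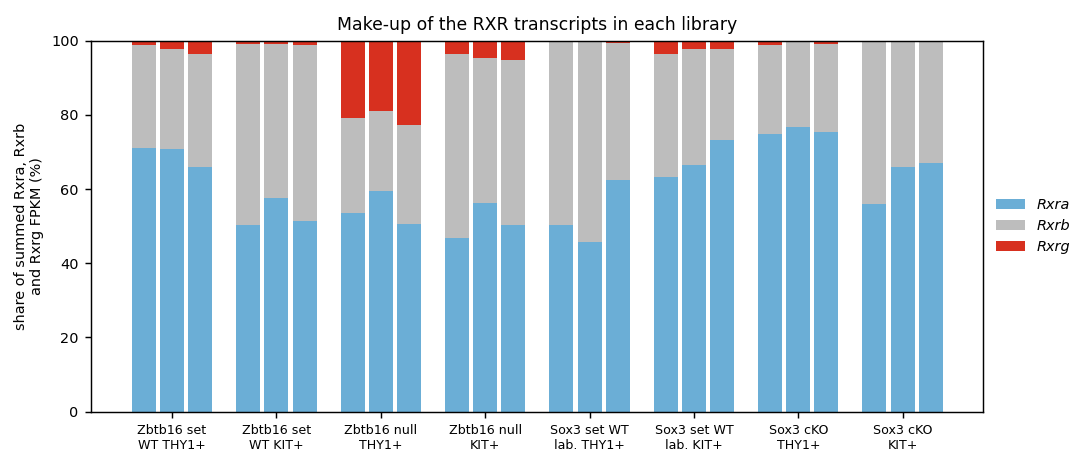
Share of Rxra, Rxrb and Rxrg in their summed FPKM (y axis, percent) in each of the 24 libraries (bars, grouped by genotype and fraction; WT libraries of the Sox3 set are grouped as labelled). Rxrg takes 18.9 to 22.7% in the Zbtb16 null THY1+ libraries and at most 5.21% in every other library.

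Rarb encodes RARβ, the receptor whose own gene responds to retinoic acid. Its level was 0.722, 0.647 and 0.852 FPKM in WT THY1+ uSPG and 0.562, 0.419 and 0.529 FPKM in null THY1+ uSPG. In KIT+ dSPG it was 1.28, 1.05 and 1.02 FPKM in WT and 0.737, 0.618 and 0.595 FPKM in null libraries. Null libraries lay below WT libraries in each fraction without overlap, and the null library was the lower in all 6 pairs of the same fraction and number. The share of all genes that separate in this way was not counted, so this is a description only. The difference was -0.48 log2 units in THY1+ uSPG (SE 0.17, adjusted p = 0.128) and -0.70 in KIT+ dSPG (SE 0.17, adjusted p = 0.144), and neither passed the limma test. With the replicate number as a block the KIT+ difference was called at an adjusted p of 0.0406.

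Averaged over both fractions, Rarb fell by 0.59 log2 units in the null (SE 0.12, 95% interval -0.86 to -0.32, adjusted p = 0.0224 by limma) and Rxrg rose by 2.61 (SE 0.17, adjusted p = 1.2e-05), so that 2 of 6 receptor genes were called against 2.30% of all genes (514 genes). The call of Rarb stood close to the threshold. It was lost at adjusted p-values of 0.0514 to 0.0566 without WT THY1+ replicate 1 or 3, WT KIT+ replicate 1, null THY1+ replicate 2, or null KIT+ replicate 2 or 3, with differences of -0.53 to -0.59. With a pseudocount of 1 it was -0.28, under 1.5-fold. The medians of the 6 somatic marker lists were -0.48 to -0.77 in THY1+ and -0.01 to 0.69 in KIT+ cells, and their part in the Rarb difference was not tested.

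The Rarb values carry a limit of annotation. Rarb, at chr14:16430839-16819156 on the minus strand of GRCm38 in GENCODE vM21, overlaps Top2b, which encodes DNA topoisomerase II beta and is read from the plus strand, and 1793 of its 5265 exon bases (34.1%) are also Top2b exon. The library kit keeps the strand, but the strand setting of the counting is not given in the sources used here, so that Rarb and Top2b reads may not be fully told apart. Top2b averaged 20.5 FPKM in WT and 11.8 in null THY1+ uSPG, a fall of 0.79 log2 units (adjusted p = 0.0103 by limma), and 20.9 FPKM in WT and 25.6 in null KIT+ dSPG, a difference of 0.28 that did not pass (adjusted p = 0.332). Top2b and Rarb thus had differences of the same sign in THY1+ and of opposite sign in KIT+ cells. The Top2b call in THY1+ cells was lost without WT THY1+ replicate 1 (adjusted p = 0.05004) or null THY1+ replicate 1 (adjusted p = 0.0545).

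The remaining 4 receptors did not pass the test in the null in either fraction. Rara, which encodes RARα, differed by -0.26 log2 units in THY1+ uSPG (95% interval -0.79 to 0.28) and by 0.17 in KIT+ dSPG (-0.36 to 0.71). Rarg, which encodes RARγ, a receptor of undifferentiated spermatogonia as they begin to differentiate, differed by -0.38 (-0.85 to 0.09) and -0.16 (-0.63 to 0.31). Its null library was the lower in 3 of 3 pairs in THY1+ and in 2 of 3 pairs in KIT+ cells. Rxra differed by -0.12 (-0.71 to 0.46) and 0.13 (-0.45 to 0.71), and Rxrb by 0.02 (-0.30 to 0.33) and 0.13 (-0.19 to 0.44). These intervals leave room for changes of more than 1.5-fold in Rara, Rarg and Rxra but not in Rxrb.

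**Figure D3:**
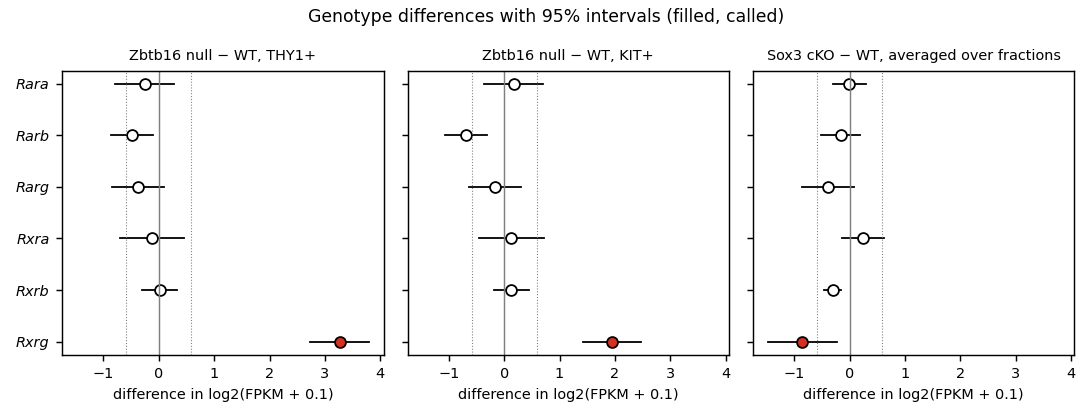
Differences in log2(FPKM + 0.1) between mutant and WT libraries for each receptor gene (points) with 95% intervals (lines), from limma; filled points are calls and dotted lines mark 1.5-fold. Rxrg lies at 3.27 and 1.95 in the Zbtb16 null, apart from the other 5 genes, and at -0.86 in the Sox3 cKO averaged over fractions.

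Between the fractions, Rxrg was again the receptor gene that differed most. In WT of the Zbtb16 set it was lower in KIT+ than in THY1+ cells by 1.16 log2 units (SE 0.24, adjusted p = 0.0043 by limma) and was the only receptor gene called, 1 of 6 against 21.2% of all genes (4737 genes), a share near the background. In the null it was lower in KIT+ cells by 2.47 log2 units (SE 0.24, adjusted p = 1.9e-05), with 1 of 6 called against 29.2% of all genes (6532 genes). Rarb and Rxrb differed in the other direction: in WT Rarb was higher in KIT+ cells by 0.53 (SE 0.17, adjusted p = 0.0379), a change under 1.5-fold, and Rxrb by 0.40 (SE 0.14, adjusted p = 0.0570). In the null the Rxrb difference was 0.51 (SE 0.14, adjusted p = 0.0147), also under 1.5-fold, and that of Rarb was 0.32 (adjusted p = 0.171). Rxra was lower in KIT+ cells by 0.67 in WT (SE 0.26, adjusted p = 0.0797) and by 0.42 in the null (SE 0.26, adjusted p = 0.240), and neither passed.

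Several of these fraction calls turned on a setting or a library. With a pseudocount of 1 the Rxrg difference in WT was -0.42, under 1.5-fold, and with a pseudocount of 0.01 or quantile normalization Rarb was called in WT (0.59 and 0.75). Without WT THY1+ replicate 3, Rarb (0.63, adjusted p = 0.0366) and Rxra (-0.88, adjusted p = 0.0365) were called in WT, and without WT KIT+ replicate 2 Rxra was called (-0.87, adjusted p = 0.0401). Without null THY1+ replicate 2 or null KIT+ replicate 3, Rxrb was called in the null, at 0.59 and 0.64 with adjusted p-values of 0.0149 and 0.0064. The fractions also differed in other cells: the macrophage genes summed to 959 to 1080 FPKM in WT THY1+ and 7.88 to 10.4 FPKM in WT KIT+ libraries, and the Leydig cell genes to 84.6 to 121 and 1219 to 2275 FPKM. The part of these cells in the fraction differences was not tested.

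In the Sox3 set the order of the receptors was similar, with Rxra at 12.4 to 33.4 FPKM, Rxrb at 8.87 to 15.1, Rara at 4.71 to 9.13, Rarg at 2.75 to 7.89, Rarb at 0.618 to 1.24 and Rxrg at 0 to 1.12 FPKM over the 12 libraries. Among WT libraries, Rxrg was 0.123, 0.0320 and 0.225 FPKM under the label THY1+ (9, 1 and 7 reads) and 1.12, 0.730 and 0.805 FPKM under the label KIT+ (79, 25 and 26 reads). In the cKO it was 0.428, 0.158 and 0.389 FPKM in THY1+ uSPG (29, 4 and 10 reads) and 0.0771, 0.110 and 0 FPKM in KIT+ dSPG (5, 3 and 0 reads). The library at 0 allows up to 0.110 FPKM, the worth of 3 reads, by counting error alone. The WT libraries labelled KIT+, whose sorting markers went against this label, were the highest of the set and overlapped no other group.

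**Figure D4:**
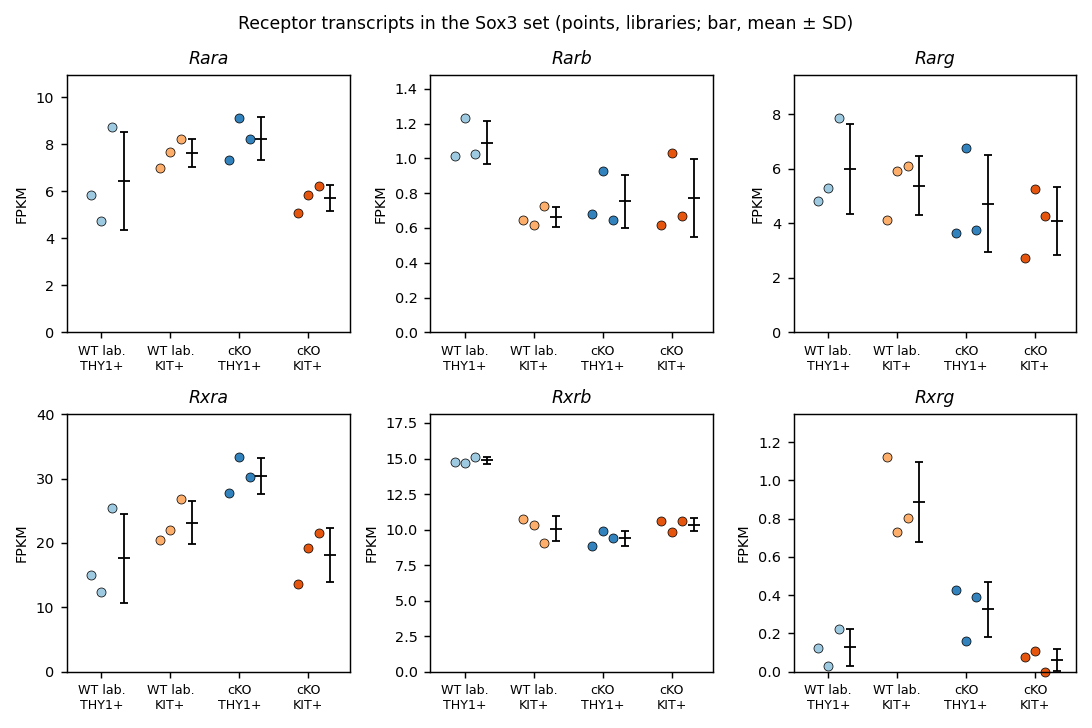
Level of each receptor gene in FPKM (y axis, linear from 0) in the 12 libraries of the Sox3 set, with a point for each library and the mean ± SD of each group of 3 beside it; WT groups stand as labelled. Rxrg is highest in the WT libraries labelled KIT+, at 0.730 to 1.12 FPKM, and Rxrb in those labelled THY1+, at 14.7 to 15.1 FPKM. The sorting markers of these WT libraries went against their labels.

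Averaged over both fractions, Rxrg was lower in the Sox3 cKO by 0.86 log2 units (SE 0.28, 95% interval -1.48 to -0.23, adjusted p = 0.0473 by limma), the only receptor gene called, 1 of 6 against 10.3% of all genes (2188 genes), again near the background. This call held in only 3 of the 12 fits that left out a library, those without WT labelled THY1+ replicate 2, cKO THY1+ replicate 1 or cKO KIT+ replicate 2. Without any of the others the adjusted p was 0.0592 to 0.108, with differences of -0.69 to -0.93, and it was 0.189 in replicates 2 and 3 alone and 0.139 with a pseudocount of 0.01. With a pseudocount of 1 the difference was -0.30, under 1.5-fold. Rxrb fell by 0.31 (SE 0.07, 95% interval -0.46 to -0.16, adjusted p = 0.0090), less than 1.5-fold, from 14.7 to 15.1 FPKM in WT labelled THY1+ and 9.06 to 10.8 FPKM in WT labelled KIT+ to 8.87 to 10.6 FPKM over both cKO groups. Rarb differed by -0.16 (-0.51 to 0.18), Rarg by -0.39 (-0.85 to 0.07) and Rxra by 0.24 (-0.14 to 0.62), and none of these passed. In these libraries Leydig (4 of 8), Sertoli (5 of 10), endothelial (4 of 8) and peritubular and stromal (3 of 12) genes were called higher in the cKO, and all 8 genes expressed across germ cells were lower, 1 of them called. Of the 17 genes of undifferentiated spermatogonia, which include the targeted Sox3, 4 were called lower and none higher, and 11 had a positive difference. Of the 8 genes of differentiating spermatogonia 2 were called lower and none higher. The part of these cells in the Rxrg and Rxrb differences was not tested.

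Taken as labelled, 2 of 6 receptor genes were called between cKO and WT THY1+ libraries, Rxra and Rxrb, against 29.1% of all genes (6166 genes). Between KIT+ libraries 1 of 6 was called, Rxrg, against 25.1% (5314 genes), and between the WT libraries labelled KIT+ and THY1+ 1 of 6, Rxrg, against 19.7% (4173 genes). Because the sorting markers of the WT libraries went against their labels, no direction was read from these calls. Within the cKO, whose labels and markers agree, 2 of 6 were called lower in KIT+ cells, against 22.7% of all genes (4809 genes, in either direction). These were Rxra, by 0.77 (SE 0.24, adjusted p = 0.0345), and Rxrg, by 1.39 (SE 0.40, adjusted p = 0.0232), whereas Rara differed by -0.52 and did not pass (adjusted p = 0.0638). The Rxra call was lost without cKO THY1+ replicate 1, 2 or 3 or cKO KIT+ replicate 1 or 2 (adjusted p of 0.0545 to 0.130), and the Rxrg call without cKO THY1+ replicate 1 or 3 or cKO KIT+ replicate 3 (adjusted p of 0.0811 to 0.0864). In replicates 2 and 3 alone neither passed (0.219 for Rxra and 0.184 for Rxrg), and Rxrg also did not with quantile normalization (0.0524) and was under 1.5-fold with a pseudocount of 1 (-0.31).

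Genes around the receptors were also read in the Zbtb16 null. Of 18 genes for retinoid uptake, retinoic acid synthesis and breakdown, 17 were tested in THY1+ uSPG, and 2 were called higher and 2 lower, beside 3.98% of all genes called in this comparison. Aldh1a2, which makes retinoic acid from retinal, rose by 0.74 log2 units (SE 0.11, adjusted p = 0.0035 by limma), from 6.58 to 8.54 FPKM in WT to 12.3 to 13.1 FPKM in null libraries. Aldh1a1, another retinal dehydrogenase, fell by 0.73 (SE 0.18, adjusted p = 0.0407), and Cyp26c1, an enzyme that breaks retinoic acid down, fell by 1.21 (SE 0.24, adjusted p = 0.0176) at levels under 0.7 FPKM. The median of the list was -0.31 against -0.03 for all genes.

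The call of Aldh1a2 held without any library. That of Cyp26c1 was lost without WT THY1+ replicate 2 or 3 or null THY1+ replicate 1 (adjusted p of 0.0502 to 0.0701), and was under 1.5-fold with a pseudocount of 1 (-0.43). Aldh1a1 lost its call without any WT THY1+ library, null THY1+ replicate 1 or 3, or WT KIT+ replicate 2 or 3 (0.0540 to 0.161), and also with quantile normalization (0.0639), moderation without trend (0.0515) or only the 6 THY1+ libraries (0.0718). Aldh1a1 stood at 40.0 to 57.8 FPKM in WT THY1+ and at 425 to 538 FPKM in WT KIT+ libraries, and the Leydig cell genes were also lower in null THY1+ libraries, as given above. Their part in its change was not tested.

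Of 18 genes known to respond to retinoic acid, 16 were tested, a list that shares members with the list before, among them Cyp26a1, Stra6, Dhrs3 and Crabp2. In THY1+ uSPG, where 3.98% of all genes were called by limma, 1 of the 16 was called higher and none lower. At an unadjusted p under 0.05 there were 6 in THY1+ uSPG and 5 in KIT+ dSPG. In KIT+ dSPG, where 0.259% of all genes were called, the only call in either list was Cyp26a1, the retinoic acid hydroxylase that is itself induced by retinoic acid, which fell by 1.08 log2 units (SE 0.17, adjusted p = 0.0246), from 2.33 to 2.97 FPKM in WT to 1.06 to 1.41 FPKM in null libraries. Averaged over fractions, where 2.30% of all genes were called, Cyp26a1 fell by 0.75 (SE 0.12, adjusted p = 0.0048) and Cyp26c1 by 1.04 (SE 0.17, adjusted p = 0.0061), and both kept these calls without any of the 12 libraries. With a pseudocount of 1 both differences were under 1.5-fold, at -0.52 for Cyp26a1 and -0.33 for Cyp26c1. The KIT+ call of Cyp26a1 was lost without any WT KIT+ library or null KIT+ replicate 2 or 3 (adjusted p of 0.0572 to 0.118), and when only the 6 KIT+ libraries were fitted (0.282). Stra8, another response gene, was not called in KIT+ dSPG, at 90.7 to 129.5 FPKM in WT and 48.2 to 71.6 FPKM in null libraries. Of the 16 response genes, 9 had a positive and 7 a negative difference there.

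No cofactor or partner receptor was called by limma in the Zbtb16 null, in either fraction or averaged, beside 3.98, 0.259 and 2.30% of all genes in THY1+, KIT+ and averaged. In THY1+ uSPG the counts at an unadjusted p under 0.05 were 1 of 7 corepressor genes, 2 of 8 coactivator genes, 3 of 13 other partners of RXR and 2 of 6 orphan receptors that bind the same repeats. In KIT+ dSPG they were 1, 1, 4 and 3, and averaged over fractions 2, 2, 1 and 0.

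The same lists were read in the Sox3 cKO, averaged over fractions, where 10.3% of all genes were called. Of the uptake, synthesis and breakdown genes 4 of 17 were higher and 2 lower, led by Cyp26b1, the hydroxylase of fetal testis somatic cells (1.31, SE 0.28, adjusted p = 0.0078), Crabp1, a retinoic acid binding protein (-0.90, SE 0.11, adjusted p = 0.0016), Aldh1a3 (0.82, SE 0.19, adjusted p = 0.0123) and Aldh1a1 (0.77, SE 0.20, adjusted p = 0.0201). Of the response genes 3 of 16 were higher and 2 lower: Stra8, the gatekeeper of meiosis induced by retinoic acid, fell by 0.88 (SE 0.10, adjusted p = 0.0016), and Nrip1, a corepressor of nuclear receptors, and Dhrs3, a retinal reductase, rose by 0.73 and 0.63 (adjusted p = 0.0030 and 0.0036). Among other partners of RXR 5 of 12 were higher and none lower, with Thrb at 0.99, Ppara at 0.83, Nr4a2 at 0.83 and Nr1h4 at 0.74. Of the orphan receptors Nr2f2 (1.07) and Nr2c1 (0.68) were higher, 2 of 6, and of the coactivators Kat2b (0.72), 1 of 8. No corepressor of 7 was called, and 4 had an unadjusted p under 0.05.

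These Sox3 calls differed in how they held. Cyp26b1, Crabp1, Aldh1a3, Stra8, Nrip1, Thrb, Nr2f2, Nr2c1 and Kat2b were called when any of the 12 libraries was left out. In replicates 2 and 3 alone the calls of Cyp26b1, Aldh1a3, Thrb and Nr2c1 were lost (adjusted p of 0.0613, 0.0548, 0.0919 and 0.0507), as were those of Aldh1a1, Ppara and Nr1h4 (0.111, 0.153 and 0.116). With quantile normalization Nrip1 (0.58) and Nr2c1 (0.52) were under 1.5-fold and Nr4a2 did not pass (0.0792). With a pseudocount of 1 Nr2c1 (0.48), Nr1h4 (0.42) and Nr4a2 (0.49) were under 1.5-fold. Aldh1a1 lost its call without WT labelled KIT+ replicate 1 or cKO THY1+ replicate 2 (adjusted p of 0.0512 to 0.0518), and Dhrs3 fell under 1.5-fold without WT labelled THY1+ replicate 2 or cKO KIT+ replicate 1 (0.57 and 0.58). Ppara was lost without WT labelled THY1+ replicate 2, WT labelled KIT+ replicate 1, cKO THY1+ replicate 2 or cKO KIT+ replicate 1 (0.0501 to 0.0573). Nr1h4 was lost without 6 libraries and Nr4a2 without 9, at adjusted p-values of at most 0.0969. Somatic markers were also called higher, as counted above, and their part was not tested.

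Rxrg lies at chr1:167598384-167639623 on the plus strand, and no annotated gene overlaps it. Its nearest tested neighbours were Lmx1a, 49614 bases after it, at 0.862 FPKM in WT and 0.677 in null THY1+ uSPG (adjusted p = 0.431), and Mgst3, 204543 bases before it, at 7.59 and 11.6 FPKM. Mgst3, a microsomal glutathione transferase, was called higher in THY1+ uSPG by 0.61 (adjusted p = 0.0454), a call that held in 4 of 12 fits with a library left out and was lost with a pseudocount of 0.01 or 1, a mean of at least 1 FPKM, moderation without trend or only the 6 libraries, and did not pass in KIT+ dSPG (0.43, adjusted p = 0.213). The other receptor genes lie at chr2:27676440-27762957 (Rxra), chr11:98927818-98974942 (Rara), chr15:102234938-102257517 (Rarg) and chr17:34031812-34038399 (Rxrb). None of the nearest tested neighbours of these 4 genes was called in the null in either fraction.

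Among 16524 genes with a mean of at least 1 FPKM, the genes whose log2 levels ran most like Rxrg over the 12 libraries of the Zbtb16 set were Krt18, a keratin of simple epithelia (r = 0.991), Gstt2 (0.982) and Ap3b2 (0.981). Over the Sox3 libraries the same 3 genes had r = 0.52, 0.23 and 0.66 with Rxrg. For Rarb they were BC005561 (0.952), Zfp11 (0.939) and Ctage5 (0.932), with 0.68, 0.36 and 0.72 in the Sox3 set. Rxra ran most like Chd4 (0.989), Ski (0.988) and Ambra1 (0.987), which had r = 0.97, 0.98 and 0.97 with it in the Sox3 set. For Rara the genes were A230087F16Rik (0.971), Mier2 (0.960) and Ankrd27 (0.957), for Rarg Arhgap39 (0.923), Ildr2 (0.913) and Gm15800 (0.911), and for Rxrb Tmem200b (0.983), Pptc7 (0.973) and Tigd5 (0.973). In the Sox3 set, in the same order, they had r = 0.92, 0.82 and 0.56 with Rara and 0.67, 0.79 and 0.25 with Rarg. With Rxrb they had r = 0.67, 0.51 and 0.57 there. These values describe libraries that share groups and may share isolations, and they carry no test.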

How the data were processed

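RNA was isolated from THY1+ and KIT+ spermatogonia of P7 mice, and stranded libraries were prepared after removal of ribosomal RNA and sequenced as single reads. The authors aligned reads to mm10 with Novoalign and computed FPKM per Ensembl gene. These FPKM, deposited as a table of 12 libraries for either set, are not counts, so the study's count test was replaced by limma 3.58.1 in R 4.3.3 on log2(FPKM + 0.1), which understates changes of low genes. Genes with a mean of at least 0.1 FPKM were tested (22374 and 21212), with 4 group means fitted to the 12 libraries of a table, eBayes with trend and robust settings, two-sided tests and Benjamini-Hochberg adjustment over all genes; the thresholds are those of the study's methods. The procedure was tested on simulated data. Alternatives changed the pseudocount, filter, normalization, moderation, block and libraries. Depth was estimated from the steps of low FPKM values, 89.7 to 93.2% of which lay within 0.1 of a whole read.

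Groups were taken from the labels. In each Zbtb16 null against WT comparison the 3 same-numbered pairs deviated together (correlations across genes of 0.133 to 0.475 in THY1+ and 0.362 to 0.520 in KIT+ libraries), and in the null the fractions did too (0.315 to 0.519). The labels do not say what the numbers share, and the pairing comes from this check alone. The 6 receptor genes and all gene lists were chosen with earlier results of these data known. Beyond these 6, the genes named are the targeted genes and sorting markers, up to 4 called genes of each pathway list in a genotype comparison, the nearest and overlapping genes, and the 3 genes most alike in level. Some called genes of the lists are counted but not reported here by name. Each isolation pooled 3 mice and replicates were derived independently per the study's methods, so p-values within a fraction measure the spread between pooled isolations. The model without a block takes all libraries of a table as independent. The labels do not say whether the THY1+ and KIT+ libraries of a number came from the same isolation. If they did, averages over fractions treat parts of the same isolation as separate replicates, and their p-values do not measure that spread.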

Additional observations from a re-analysis of the deposited data

How the results depend on the processing

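Alternatives were a pseudocount of 0.01 or 1, no filter or a mean of at least 1 FPKM, quantile normalization, upper-quartile scaling, moderation without trend, a replicate block, leaving out each library, the 6 libraries of a comparison alone and, for Sox3, replicates 2 and 3 alone. The rise of Rxrg in null THY1+ uSPG kept its call in all of them. In null KIT+ dSPG 2 receptor genes were called with the replicate block and 0 from the 6 libraries alone. Averaged over fractions 1 was called with a pseudocount of 1 or a mean of 1 FPKM, where Rarb was not tested, and 1 to 2 without a library. For the interaction 1 was called with a pseudocount of 1 or the block. Between WT fractions 2 were called with a pseudocount of 0.01, quantile normalization or the block, 0 with a pseudocount of 1, and 1 to 3 without a library; between null fractions 1 to 2 without a library. For Sox3 averaged over fractions 0 were called with either pseudocount, a mean of 1 FPKM (Rxrg not tested) or replicates 2 and 3 alone, and 0 to 1 without a library. As labelled THY1+ the count was 1 in replicates 2 and 3 alone and 1 to 4 without a library, and as labelled KIT+ 0 at a mean of 1 FPKM. Between cKO fractions it was 1 with a pseudocount of 1, a mean of 1 FPKM or quantile normalization, 0 in replicates 2 and 3 alone, and 0 to 2 without a library. Between WT fractions of the Sox3 set as labelled it was 0 at a mean of 1 FPKM, 2 with either scaling, the block or replicates 2 and 3 alone, and 1 to 2 without a library. The causes of these changes were not tested, except where a gene was left out by the filter. Only uncalled differences changed sign: without a library, Rxra in THY1+ uSPG ranged from -0.36 to 0.069 and in KIT+ dSPG from -0.062 to 0.33, and Rxrb in THY1+ uSPG from -0.10 to 0.10.

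With the replicate block, the interaction of Rxrg had an adjusted p of 0.0200 and the WT fraction difference of Rxra of 0.0022. Over all groups 16 of 18 same-numbered pairs in the Zbtb16 set and 12 of 18 in the Sox3 set correlated over 0.1, and 11 and 9 of 12 libraries correlated best with their own number. The block raised the genes called for the interaction from 7 to 2756 and changed those of the other comparisons by at most 1.39 times, apart from the null in THY1+ and KIT+ cells given above. Beside these and the KIT+ call of Rarb, it changed the number of receptor genes called only in the Sox3 WT fractions as labelled. Counts over all genes also moved by over 1.5 times. A pseudocount of 1 gave 565 calls in null THY1+, 25 in null KIT+, 157 averaged, 45 for the interaction, 2883 and 4070 between WT and null fractions, and 1024 for Sox3 averaged. A mean of 1 FPKM gave 468, 244 averaged, and 3139 and 4332 between fractions; upper-quartile scaling gave 3 for the interaction and the 6 KIT+ libraries alone 2. Replicates 2 and 3 of Sox3 alone gave 597 averaged, 3283 labelled KIT+ and 2473 between cKO fractions. Without a library the counts were 295 to 922 in null THY1+, 25 to 42 in null KIT+, 340 to 488 averaged and 1 to 867 for the interaction. The THY1+ count was 295 to 369 without WT THY1+ replicate 1 or 2 or null THY1+ replicate 1 or 3, the averaged count 340 without null THY1+ replicate 1, and the interaction 867 without null KIT+ replicate 1 and at most 2 without any of the others. Low counts limit Rxrg in the Sox3 set, where several libraries held under 10 reads of it.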
